A study of Pleurodeles waltl with 9 samples.

Results

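In the dorsal iris of the Iberian ribbed newt, Pleurodeles waltl, 38 of the 295141 transcripts listed had a signal that collapsed 1 day after the lens was removed and was high again at 4 days. They were chosen by their own values. The lowest signal in intact replicates 1 and 2 and in the 3 libraries at 4 days post-lentectomy (dpl) had to be at least 100, and at least 3 times the highest signal at 1 dpl plus 1. The fall from intact to 1 dpl and the return from 1 to 4 dpl are therefore set by the choice and are described without a test. The difference between 4 dpl and intact was not itself a condition of the rule and was tested. Both levels had to lie well above the level at 1 dpl, so transcripts that stayed low at 4 dpl were left out.

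Dorsal iris tissue was taken from newts of 13 months, either intact or at 1 or 4 dpl, and the tissue of 4 animals was pooled in each library, with 3 libraries per group. RNA was sequenced in bulk, and the values are the signal per transcript deposited by the authors, who left out intact replicate 3 for its alignment rate. The column totals of the 9 libraries ranged from 17541441 to 22023433, and no read counts come with the values. The paper states a minimum depth per sample, but the depth of each library is unknown. No strain, genotype or further treatment separates the groups in the labels, and a mock-operated group was not analysed here, so removal of the lens and the surgery itself cannot be told apart.

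Newts rebuild a lost lens from the pigment epithelial cells of the dorsal iris, which lose their pigment, re-enter the cell cycle and change into lens cells, whereas the ventral iris does not normally form a lens. Surgery also opens the eye, and blood-borne and resident immune cells gather in the wound during the first days. In bulk tissue a lower signal can come from fewer cells of a type or from less RNA per cell, and these cannot be told apart. Many genes give several transcripts that differ by the exons they join, and a quantifier such as Salmon divides the reads that such transcripts share among them, so a transcript can fall while its gene does not.

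The transcript IDs are not paired with gene names. Of 59059 genes that RefSeq lists on assembly aPleWal1.hap1.20221129, 0 could be matched to an ID, so no function is given to any transcript, no sequence is shown and the labelled tissue was not checked against marker genes. Of the 38 transcripts, 25 had an ID beginning with mRNA and 13 (34.2%) an ID that StringTie, the program that joined the aligned reads into transcripts, gave to its own assemblies. StringTie IDs made up 38.8% of the 12365 transcripts whose signal was at least 100 in the same 5 intact and 4 dpl libraries, hereafter the abundant transcripts. Only 4 IDs are printed, the 2 with the greatest and the 2 with the lowest difference between 4 dpl and intact, and the other transcripts are described by their place in the order.

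The dipping transcripts were a small fraction of those that met either condition alone. They made up 0.307% of the abundant transcripts. By the same fold and level, 598 transcripts were lower at 1 dpl than in the intact iris, and the 38 were 6.35% of these. Likewise, 351 transcripts were higher at 4 dpl than at 1 dpl, of which the 38 were 10.8%. The mirrored pattern, with every 1 dpl library above every intact and 4 dpl library by the same fold, held for 70 transcripts.

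Most transcripts that fell by this rule had not returned to the intact level at 4 dpl. Over the 598, the 4 dpl mean was a median 26.4% of the intact mean (quartiles 14.7% and 46.4%), and it was under 50% for 469 transcripts (78.4%). All 3 libraries at 4 dpl exceeded all 3 at 1 dpl for 233 transcripts (39.0%). For 135 (22.6%), no library at 4 dpl exceeded the highest at 1 dpl. For the 38 chosen transcripts, the 4 dpl mean was a median 90.1% of the intact mean (quartiles 69.4% and 110.0%), as the rule favours.

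Transcripts near the limits of the rule differed from their neighbours by little. The lowest intact or 4 dpl signal divided by the highest 1 dpl signal plus 1 was 3.04, 3.11 and 3.11 in the chosen transcripts nearest the fold limit, and 2.97, 2.89 and 2.89 in the nearest transcripts left out. The lowest intact or 4 dpl signal was 102.6, 111 and 113 just inside the level limit and 96.5, 93.4 and 92.6 just outside it. A further 40 transcripts passed the fold but not the level, and 94 passed the level with a ratio from 2 to under 3. The set is thus the upper end of a continuous range of dips.

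The median signal over the 38 transcripts was 482 and 460.5 in intact replicates 1 and 2, 39.6, 33.2 and 35.6 in the 1 dpl libraries, and 468, 388 and 367 in the 4 dpl libraries. Their summed signal held 0.163% and 0.160% of the column total in intact replicates 1 and 2. It held 0.0160%, 0.0135% and 0.0127% at 1 dpl, and 0.158%, 0.154% and 0.165% at 4 dpl. The summed share at 4 dpl thus lay within or close to the span of intact replicates 1 and 2, which the rule favours. Every library at 1 dpl lay roughly an order of magnitude lower. The medians in 4 dpl replicates 2 and 3 were below those of both intact libraries. Intact replicate 3, not used by the rule, had a median of 177 and a share of 0.0829%. In the intact iris the transcripts were at percentiles from 87.9 to 99.6 of the intact mean (median 95.9) among the 154825 transcripts tested. The rule's minimum level of 100 places them there, so this is no result about them. The intact mean was under 300 for 13 transcripts, from 300 to under 1000 for 15, and at least 1000 for 10.

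**Figure D1:**
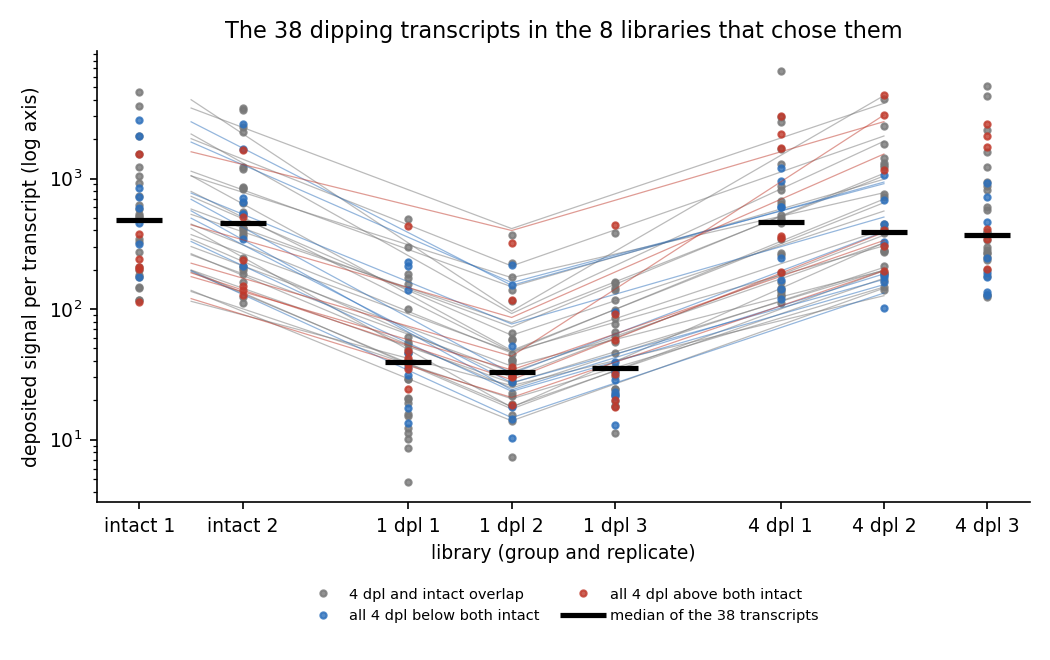
Signal per transcript (log axis) in each of the 8 libraries that chose the 38 transcripts; points are transcripts coloured by whether their 4 dpl libraries overlap the intact ones, thin lines join each transcript's group means, and black bars mark the median of the 38. The medians drop from 482 and 460.5 in the intact libraries to between 33.2 and 39.6 at 1 dpl and stand between 367 and 468 at 4 dpl.

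The dip was deep but not to zero. The mean at 1 dpl was between 2.41% and 25% of the intact mean, with a median of 10.2%, and was under 10% for 18 transcripts and under 5% for 6. Expressed as a fold, intact exceeded 1 dpl by 4.01 to 41.6 times, with a median of 9.85. On the log2(signal + 1) scale, the mean difference between 1 dpl and intact ran from -5.48 to -2.01, with a median of -3.34. No transcript was listed at 0 in any library at 1 dpl (0 of 38). The paper describes its values as Salmon estimates averaged over inferential replicates, so a low value above 0 may rest on reads shared with other transcripts. The rise from 1 to 4 dpl spanned 4.47 to 70.3 times, with a median of 9.23.

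The deepest dip belonged to the transcript with the highest intact level. Its signal was 4565 and 3458 in intact replicates 1 and 2, then 155, 58.1 and 76.3 at 1 dpl, and 6627, 1229.5 and 5089 at 4 dpl. The 1 dpl libraries were far below all others, and the 4 dpl libraries fell on both sides of the intact ones, with replicate 2 well below replicates 1 and 3. The 4 dpl mean, 4315 ± 2781 (SD, n = 3), stood beside an intact mean of 4012 ± 783 (SD, n = 2), and the ratio of the highest to the lowest 4 dpl library, 5.39, was the widest of the 38.

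The shallowest dip was seen in an abundant transcript that ended above its intact level. Its signal was 1545 and 1659 in the intact libraries, 437, 322 and 441 at 1 dpl, and 3011, 3049 and 2120.0 at 4 dpl. Replicates lay close together in each group and the groups did not overlap. The transcript with the widest margin under the rule, a ratio of 10.8, measured 2127 and 2255 when intact, 101, 30.5 and 146 at 1 dpl, and 1676, 2526 and 1588 at 4 dpl. Here the 4 dpl libraries again surrounded the intact ones.

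Among the 8 libraries that chose the transcripts, replicates spread most at 1 dpl, where the signal was lowest. The median SD of log2(signal + 1) over the 38 transcripts was 0.19 in the intact libraries (n = 2), 0.56 at 1 dpl (n = 3) and 0.34 at 4 dpl (n = 3). The abundant transcripts had medians of 0.16, 0.27 and 0.23 in the same order. These spreads set 2 intact libraries against 3 in the other groups. They leave out intact replicate 3, whose signal over the 38 was a median 44.2% of the mean of the other intact libraries. The highest 1 dpl library exceeded the lowest at least 2-fold for 22 transcripts and at least 3-fold for 11. On signal plus 1, the median ratio was 2.12 over the 38 and 1.43 over the abundant transcripts. The abundant transcripts had library medians of 401, 404 and 419 at 1 dpl, so transcripts of equally low signal were not compared. The widest case measured 11.2, 140.2 and 85.1 at 1 dpl, a ratio of 12.5, against 510.0 and 553 in the intact libraries and 479, 1438 and 1223 at 4 dpl. The depth of that dip depends on which 1 dpl library is read.

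The highest and the lowest 1 dpl library varied from transcript to transcript. The highest of the 3 was replicate 1 for 16 transcripts, replicate 2 for 9 and replicate 3 for 13, and the lowest was replicate 1 for 11, replicate 2 for 15 and replicate 3 for 12. At 4 dpl the lowest library was replicate 1 for 17 transcripts, replicate 2 for 11 and replicate 3 for 10. Among the 38, 4 transcripts formed 2 pairs with consecutive ID numbers. In the more abundant pair, the first transcript measured 3589.5 and 3339 when intact, 490.4, 371 and 380.1 at 1 dpl, and 2984, 4049 and 4263 at 4 dpl, and the second 1537 and 2502, then 298, 227 and 117, then 2698, 1315 and 2338. Whether the members of a pair belong to a single gene is not known here, so the number of separate genes among the 38 may be smaller than 38.

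Whether the level at 4 dpl fell short of, met or exceeded the intact level differed among the 38. All 3 libraries at 4 dpl lay above both intact libraries for 6 transcripts (15.8%), below both for 8 (21.1%), and overlapped them for 24 (63.2%). Over all 154825 transcripts tested, the corresponding shares were 10.5%, 17.4% and 72.1%. Among the abundant transcripts they were 36.9%, 25.2% and 37.9%. Among the 598 that fell at 1 dpl they were 1%, 84.3% and 14.7%, and the 6 lying above are the same 6 transcripts. The rule holds the 4 dpl libraries well above 1 dpl, which alone moves these shares away from those of the 598, and they are given as a description.

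Measured by group means, the 4 dpl level ran from 32.9% to 1365% of the intact level. It was above the intact mean for 16 transcripts and below it for 22. For 21 transcripts (55.3%) the means lay within 1.5-fold of each other, against 52.8% of the abundant transcripts, and 8 lay at least 1.5-fold above and 9 at least 1.5-fold below. The 4 dpl mean was under 50% of the intact mean for 5 transcripts and under 25% for 0.

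In limma's test of 4 dpl against intact over all 154825 transcripts, with Benjamini-Hochberg adjustment, 1 of the 38 was higher at 4 dpl and 0 were lower at an adjusted p under 0.05. Over all transcripts tested, 1.37% were called higher and 0.651% lower, and among the abundant transcripts 8.31% and 3.73%. The rule left out transcripts that stayed low at 4 dpl, which works against calls of lower among the 38. Of the 598 that fell at 1 dpl, 84.3% had every 4 dpl library below both intact ones. The counts over the 38 and these shares are therefore not like for like. At an unadjusted p under 0.05, limma had 5 of the 38 higher and 3 lower, against 5.4% and 5.98% of all transcripts tested and 23% and 13.8% of the abundant ones. The median log2 difference was -0.19 over the 38, -0.12 over all transcripts tested and 0.15 over the abundant transcripts. Once intact replicate 3 was added, it was 0.44 over the 38 and -0.23 over all transcripts tested. The 38 were chosen for being high in intact replicates 1 and 2, which favours a rise when an intact library outside the choice is added. The 95% interval of the difference included 0 for 30 transcripts, lay above 0 for 5 and below 0 for 3. The intervals were wide, with a median width of 2.11 on the log2 scale (0.97 to 4.10), and lay within 1 log2 unit of 0 on both sides for only 2 transcripts. For those 2, the interval placed the 4 dpl level within 2-fold of the level in intact replicates 1 and 2. The intervals were not adjusted for the number of transcripts. All 3 groups share the estimate of the spread, so the spread at 1 dpl, the widest for these transcripts, enters every interval. With only intact and 4 dpl fitted, the SE was smaller for each of the 4 printed transcripts. The change was least for MSTRG.80913.5 (0.40 to 0.35) and greatest for mRNA10438 (0.82 to 0.28). For the 1 transcript called higher, the whole interval lay more than 1 log2 unit above 0, so outside 2-fold of intact. For the rest, a return to within 2-fold of the intact level was not resolved in the fit of all 3 groups.

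**Figure D2:**
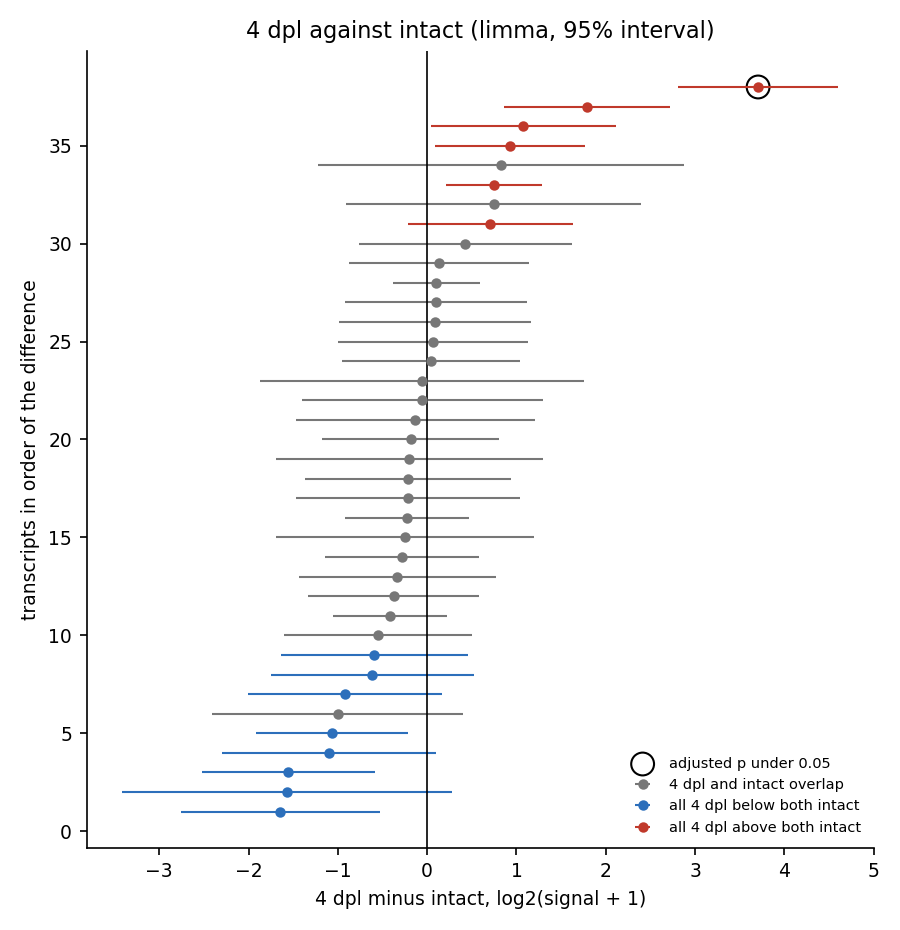
Difference between 4 dpl and intact in log2(signal + 1) for each of the 38 transcripts, in order, with limma's 95% interval as a horizontal line; colours mark whether all 4 dpl libraries lay above, below or among the intact ones, and the open circle marks an adjusted p under 0.05. Differences run from -1.65 to 3.71, 30 of the 38 intervals include 0, and a single transcript is circled.

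The transcript called higher at 4 dpl than in the intact iris was MSTRG.80913.5. Its signal was 209.8 and 239.6 in intact replicates 1 and 2, 42.6, 30 and 58.2 at 1 dpl, and 2212, 4357 and 2629.9 at 4 dpl. Every library at 4 dpl exceeded every intact library, and these in turn exceeded every library at 1 dpl. The 4 dpl mean was 3066 ± 1137 (SD, n = 3) against an intact mean of 225 ± 21.1 (SD, n = 2), with a log2 difference of 3.71 (SE 0.40, limma's Benjamini-Hochberg adjusted p = 0.00212). That call was lost without intact replicate 2, where limma's adjusted p was 0.0529, and without the intensity trend, where it was 0.0590, and the log2 difference was 3.80 and 3.71 in these fits.

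The next greatest was MSTRG.25558.2, at 378 and 505 in the intact libraries, 48.1, 118 and 92.3 at 1 dpl, and 1714, 1155 and 1756 at 4 dpl. All 4 dpl libraries lay above both intact ones. The log2 difference was 1.79 (SE 0.41, 95% interval 0.86 to 2.72), and limma's adjusted p of 0.0703 missed the threshold. It passed in 4 other fits of the transcript, with limma's adjusted p at 0.0329 without 1 dpl replicate 1, 0.0170 with intact replicate 3 added, 0.0253 with a minimum mean signal of 20 and 0.0260 with library weights.

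The other 4 transcripts in which every 4 dpl library lay above both intact ones had smaller differences, from 0.71 to 1.08 on the log2 scale. The most even of them at 4 dpl measured 113 and 128 when intact, 24.3, 18.5 and 20.3 at 1 dpl, and 193, 197 and 201 at 4 dpl. In these libraries its replicates differed by less than the groups at every stage. Intact replicate 3, not used by the rule, measured 53.0 for it, well below the other intact libraries. Over the 6 transcripts of this class the mean at 1 dpl was 15.2% to 25% of intact, with a median of 19.4%.

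Among the transcripts that fell short of intact, MSTRG.103493.6 had the lowest difference. Its signal was 597 and 535 in the intact libraries, 36.1, 14.5 and 21.7 at 1 dpl, and 247, 183 and 129 at 4 dpl. The groups did not overlap, and the 4 dpl mean of 186 ± 59.2 (SD, n = 3) was 32.9% of the intact mean of 566 ± 44.0 (SD, n = 2). The log2 difference was -1.65 (SE 0.49, 95% interval -2.76 to -0.53), with limma's adjusted p at 0.175.

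The transcript mRNA10438 was next, with 2809 and 2628 in the intact libraries, 215 and 217 in 1 dpl replicates 1 and 2 but 23.4 in replicate 3, and 1208, 690.1 and 921 at 4 dpl. The intact libraries agreed closely, all 4 dpl libraries lay below them, and 1 dpl replicate 3 stood apart from the other 1 dpl libraries. The log2 difference between 4 dpl and intact was -1.57 (SE 0.82, 95% interval -3.41 to 0.28), with limma's adjusted p at 0.567. Because all groups share the estimate of the spread, the odd 1 dpl library widened this interval. Without it the difference stayed at -1.57, the SE was 0.26 and limma's adjusted p was 0.0277. With only intact and 4 dpl fitted, which also leaves that library out, the SE was 0.28 and limma's adjusted p of 0.0994 missed the threshold.

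Another transcript was close to these, at 455 and 539 when intact, 17.5, 31.6 and 32.7 at 1 dpl, and 143, 175 and 189.6 at 4 dpl. All its 4 dpl libraries lay below both intact ones. Over the 8 transcripts of this class the mean at 1 dpl was 4.26% to 9.95% of intact, with a median of 6.36%. The transcripts that fell short at 4 dpl thus had deeper dips than those that exceeded intact, and these ranges did not overlap. The 24 transcripts whose 4 dpl and intact libraries overlapped ran from 2.41% to 22.6%, across most of both ranges. The 1 dpl and 4 dpl percentages divide by the same intact mean. The rule also lets a transcript with a low 4 dpl level enter only if its 1 dpl level is lower still. The separation between those below and those above intact is therefore partly built in and was not tested.

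**Figure D3:**
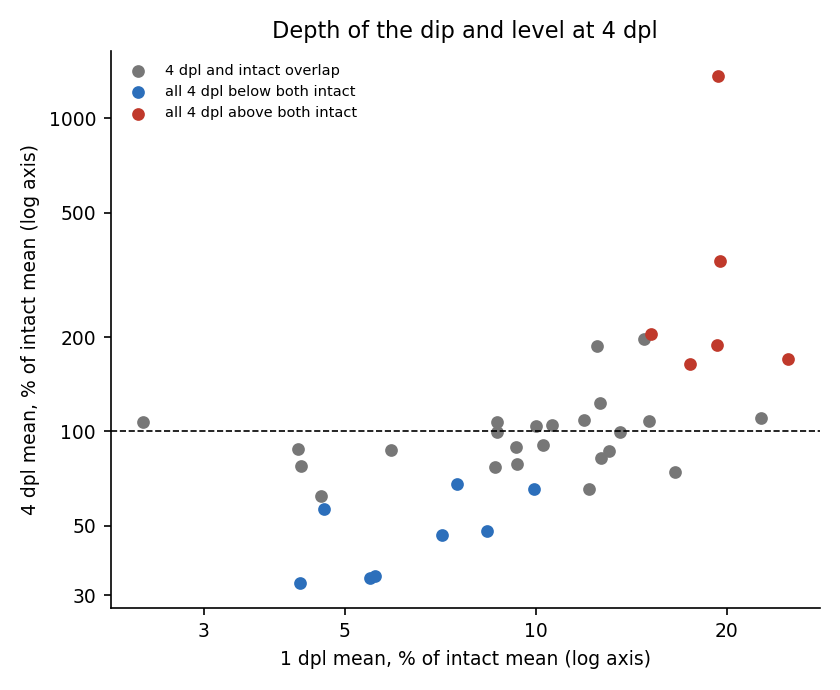
Mean at 1 dpl against mean at 4 dpl, each as a percentage of the intact mean (log axes), for the 38 transcripts; colours mark whether all 4 dpl libraries lay above, below or among the intact ones, and the dashed line is the intact level. The 8 transcripts below intact have 1 dpl means of 4.26% to 9.95%, the 6 above have 15.2% to 25%, and the 24 overlapping have 2.41% to 22.6%. Both axes share the intact mean.

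Intact replicate 3 was used neither by the rule nor in the main test, and gives a further reading of the intact level. This library stood apart: the median of the abundant transcripts was 258 there and between 396 and 459 in the other 8 libraries, and the 38 transcripts held 0.0829% of its total. Its signal exceeded all 3 libraries at 1 dpl for 33 of the 38 (86.8%). The same was true of 31.5% of all transcripts tested, 18.6% of the abundant transcripts and 82.4% of the 598 that fell at 1 dpl. It was at least 3 times the highest 1 dpl signal plus 1 for 19 (50.0%), against 9.4%, 0.97% and 34.4%. The 1 dpl values in these counts are those the rule chose for being low, which favours such counts, and they are a description.

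Most of the 38 were nevertheless lower in this library than in the other intact ones. It lay below both for 34 transcripts (89.5%), against 25.9% of all transcripts tested, 73.4% of the abundant transcripts and 87.1% of the 598. The rule chose the 38 for being high in intact replicates 1 and 2, which favours this count, and it is a description. Its signal was between 3.37% and 126% of the mean of intact replicates 1 and 2, with a median of 44.2%, while the abundant transcripts had a median of 67.7%. For 29 transcripts it fell between the highest 1 dpl library and the lower of the other intact libraries. The part of the low alignment rate in these values was not tested.

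For 5 transcripts, intact replicate 3 did not exceed the highest 1 dpl library; its signal was among the 1 dpl values for 4 and below all of them for 1. All 5 belonged to the 24 whose 4 dpl and intact libraries overlapped. The transcript with the deepest dip was among the 4, at 135 in intact replicate 3 against 4565 and 3458 in the other intact libraries, a value inside its 1 dpl range of 58.1 to 155. Its intact level, and with it the depth of its dip, therefore differed widely between intact libraries. The printed transcripts were at 184 for MSTRG.80913.5, 142 for MSTRG.25558.2, 282 for MSTRG.103493.6 and 2208 for mRNA10438 in this library, each above its 3 values at 1 dpl. Of the 19 transcripts that still met the fold, 3 were above intact at 4 dpl, 7 below and 9 overlapping.

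**Figure D4:**
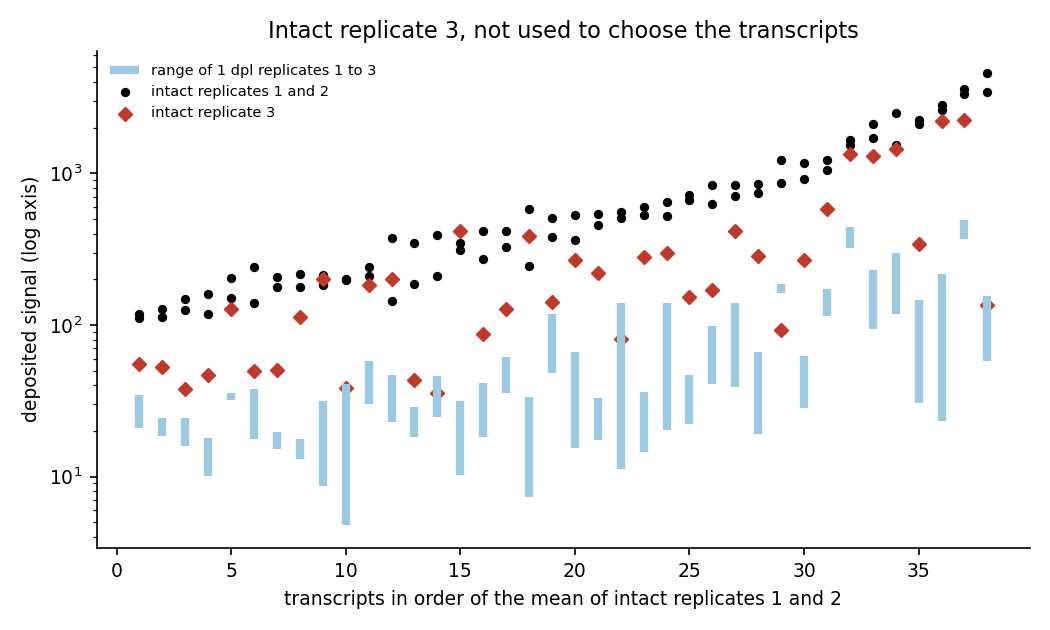
Signal (log axis) of the 38 transcripts, ordered by the mean of intact replicates 1 and 2, in intact replicates 1 and 2 (black points), in intact replicate 3 (red diamonds) and as the range of the 1 dpl libraries (blue bars). The diamond lies above the bar for 33 transcripts and below both black points for 34.

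The 13 transcripts with StringTie IDs came from 13 different StringTie genes, each with 2 to 25 assembled transcripts (median 4). The other transcripts of these genes were not used by the rule, whereas a gene total contains the chosen transcript and is favoured by the choice. Summed over the gene, the signal was lower in every 1 dpl library than in all 5 intact and 4 dpl libraries for 10 of the 13 genes, and overlapped for 3. Over the 3250 abundant StringTie transcripts whose gene had more than 1 transcript, 16.7% had such a gene total. Summed over the other transcripts alone, it was lower in every 1 dpl library for 5 genes, higher for 1 and overlapping for 7, against 7.91% lower and 6.22% higher over the same 3250. The gene total at 1 dpl was a median 43.1% of intact (13.5% to 346%) and under 50% for 8 genes, and that of the other transcripts a median 50.9% (24.4% to 728%). Of the 13 totals, 1 met the rule itself. Transcripts of the same gene under mRNA IDs could not be added to these sums.

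The chosen transcript also lost its share of the gene. It held a median 42.0% of the gene's signal in the intact libraries (7.03% to 77.7%), 9.85% at 1 dpl (0.539% to 24.5%) and 39.4% at 4 dpl (9.89% to 88.1%). The share was lower in every 1 dpl library than in every intact and 4 dpl library for 12 of the 13 genes, against 6.09% of the 3250. In the intact iris the chosen transcript was the largest of its gene for 8. Since the transcript was chosen for being low at 1 dpl, a lower share is favoured by the choice, and is given as a description.

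The gene of MSTRG.103493.6 dipped in its total and in the sum of its other transcripts, but neither reached the fold of the rule. Its other 5 transcripts summed to 480.1 and 418 in the intact libraries, 98.5, 99.7 and 141 at 1 dpl, and 328, 242 and 318 at 4 dpl. The gene total went from 1015 ± 87.9 (SD, n = 2) to 137 ± 24.3 (SD, n = 3) and back to 482 ± 80.6 (SD, n = 3), the same order as the transcript itself. The log2 difference of the gene total between 4 dpl and intact was -1.08, with limma's adjusted p at 0.0829 over gene sums.

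The gene of MSTRG.25558.2 had a single other transcript, which moved the opposite way. It measured 198 and 57.7 in the intact libraries, 1286, 1004 and 507 at 1 dpl, and 66.8, 355 and 162 at 4 dpl. Every 1 dpl library was thus above all intact and 4 dpl libraries. The chosen transcript held 65.6% and 89.7% of the gene when intact, 3.61%, 10.6% and 15.4% at 1 dpl, and 96.2%, 76.5% and 91.6% at 4 dpl. The gene total was not lowest at 1 dpl, with 577 and 562, then 1334, 1123 and 599, then 1780.4, 1509 and 1917. It was higher at 4 dpl than in intact tissue, by 1.60 on the log2 scale (SE 0.31, limma's adjusted p = 0.0267 over gene sums). Intact replicate 3 gave a share of 22.4%, between the 1 dpl libraries and the other intact ones.

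The gene of MSTRG.80913.5 did not dip. Its other 5 transcripts summed to 1799 and 2480.4 in the intact libraries, 6332, 8226 and 9857 at 1 dpl, and 12267, 15187 and 13486 at 4 dpl. The groups were in rising order and did not overlap. The chosen transcript was a small part of its gene at every stage, at 9.62% ± 1.15 (SD, n = 2), 0.539% ± 0.157 (SD, n = 3) and 18.0% ± 3.79 (SD, n = 3) of the total. Summed over the gene, 4 dpl exceeded intact by 2.83 on the log2 scale (SE 0.20, limma's adjusted p = 0.000187 over gene sums). The dip of this transcript is thus a change within a gene whose total was higher at 1 dpl than in the intact iris, and how far the division of shared reads among its transcripts sets that dip was not tested.

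In 1 further gene the total passed the test in the opposite direction. It had 2 transcripts, and its total was 2469.9 and 2203 when intact, 977, 1079 and 966 at 1 dpl, and 1397, 1331 and 1305 at 4 dpl. The chosen transcript had returned, at 531 and 365 when intact, 56.3, 15.4 and 66.5 at 1 dpl, and 499.6, 382 and 339 at 4 dpl, while the other stayed low, at 1939 and 1838, then 921, 1063 and 900.0, then 898, 949 and 967. The gene total at 4 dpl differed from intact replicates 1 and 2 by -0.80 on the log2 scale (SE 0.16, limma's adjusted p = 0.0273 over gene sums). In intact replicate 3, left out of that fit, the total was 1238, below every 4 dpl total, and the other transcript measured 969. The fall was thus not seen against that library. This gene was picked for its result after the values were seen.

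**Figure D5:**
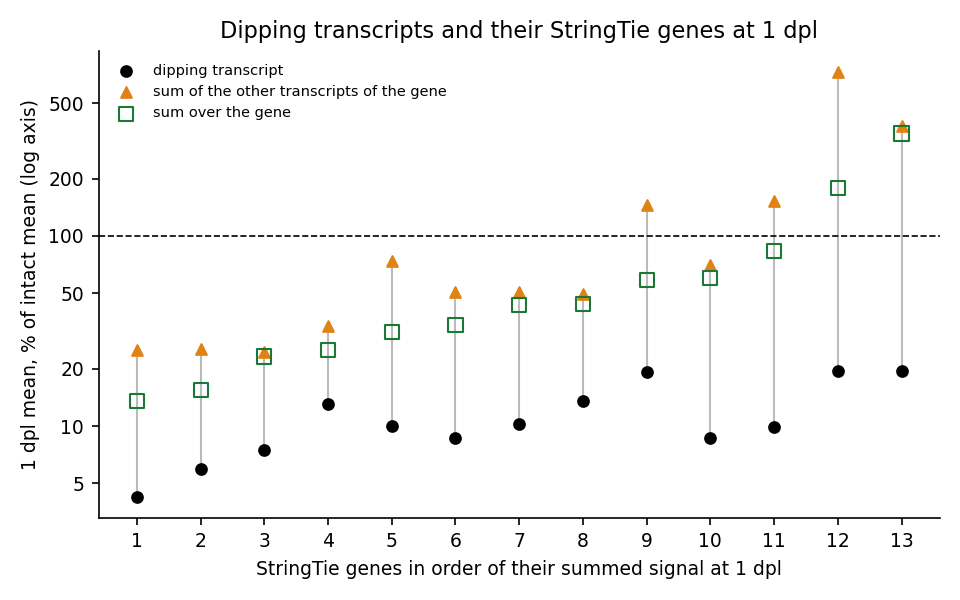
Mean at 1 dpl as a percentage of the intact mean (log axis) for the 13 chosen transcripts with StringTie IDs (black points), the summed other transcripts of the same gene (orange triangles) and the gene total (green squares), with genes ordered by their total. All 13 points lie under 20%, while the totals span 13.5% to 346% and 2 of them lie above the dashed line of the intact level.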

How the data were processed

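Per the paper's methods, trimming was done with Trim Galore, alignment to the newt genome with STAR in its 2-pass mode, transcript assembly with StringTie and quantification with Salmon. Neither the build nor tool versions are given in the sources used here. The deposited signal per transcript is named average TPM by the authors, but its columns sum to between 17541441 and 22023433, and 0 of the values above 0 were whole numbers, so it was taken as a signal of unknown scale and no count test was run. Library groups come from the sample labels. Tests used 8 of the 9 columns, with intact replicate 3 left out as in the study.

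Transcripts with a mean signal of at least 0.5 were tested as log2(signal + 1) with limma 3.58.1 (R 4.3.3; lmFit, eBayes with an intensity trend, all 3 groups together), with Benjamini-Hochberg adjustment over 154825 transcripts and a threshold of 0.05. A fold change on this scale understates that of low values. The design had assumed TPM and was kept. All 38 transcripts passed the filter. The procedure was tested on simulated data with differences between 4 dpl and intact planted in 200 transcripts. Of these it called 53, 0 with the wrong sign, and it called 1 unchanged transcript. At a log2 difference of 1 it called 3 of 66, at 2 it called 19 of 66, and at 3 it called 31 of 68. Most of the planted differences were thus missed. In the deposited data the same procedure called 2123 transcripts higher and 1008 lower, far more than the 200 planted. The largest unadjusted p that passes rises with the number of calls, so the simulated rates cannot be read as those of the reported test. P-values measure the spread between libraries of pooled animals.

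Members and comparison sets were chosen with earlier results of these data known. Printed IDs are the 2 greatest and 2 lowest differences between 4 dpl and intact. Tables were read with pandas 2.3.3 and drawn with matplotlib 3.10.9. Alternatives covered the limits of the rule, pseudocount, filter, scaling, intact replicate 3, replicate number as a block, groups fitted, variance trend, library weights, gene sums and each library left out. Those for the overlap of libraries, for intact replicate 3 and for the StringTie gene totals, and some for the printed transcripts, were added after the data were seen. Across 7 same-numbered pairs of libraries from different groups, deviations from the group means correlated between -0.0806 and 0.0048, so the numbers were not taken as pairs.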

Additional observations from a re-analysis of the deposited data

How the results depend on the processing

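Of 186 recomputed values, 152 were labelled unchanged. For a printed transcript this meant the same direction and side of the threshold, and for a count a change of at most 1.5-fold. For the median difference it meant a move under 0.061. A count of 56 dipping transcripts without 4 dpl replicate 3, in place of 38, is thus among the 152. A sign changed for 1 value, the median difference between 4 dpl and intact over the 38, from -0.19 to 0.44 with intact replicate 3 included. Over all transcripts tested that median went from -0.12 to -0.23. The number of dipping transcripts, 38, was set by the limits chosen: 22 at a level of 200, 132 at 2-fold, 11 at 5-fold, 19 with intact replicate 3 included, and 54 to 115 with a library left out (115 without 1 dpl replicate 1, 87 without replicate 2 and 81 without replicate 3), since fewer libraries had to pass. The 6 transcripts above intact at 4 dpl became 7 to 9 and the 8 below became 10 to 12 with a library left out, and the count below was 5 with intact replicate 3 included.

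The count higher at 4 dpl by limma (1) was 2 with a minimum mean of 20, with intact replicate 3, with library weights and over gene sums, 0 without the intensity trend, and 0 to 2 with a library left out (0 without intact replicate 2, 2 without 1 dpl replicate 1). The count lower (0) was 1 with a minimum of 20, with only intact and 4 dpl fitted, with library weights and over gene sums, and 0 to 1 with a library left out (1 without 1 dpl replicate 3). The transcript called lower without 1 dpl replicate 3 was mRNA10438, whose SE went from 0.82 to 0.26. Causes of the other changes were not tested. The median difference was otherwise -0.27 with columns scaled to the mean total, -0.12 with median-of-ratios scaling, -0.30 with quantile normalization, and -0.25 to -0.10 with a library left out. Quantile normalization moved the median of all transcripts tested from -0.12 to 0.

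With the replicate number as a block the median was -0.24 with 1 transcript higher and 0 lower, against a median of -0.41 over all transcripts tested. The labels describe no pairing behind these numbers, and over all transcripts the block gave 1184 higher and 518 lower in place of 2123 and 1008. Over the 21 alternatives, gene sums included, limma's adjusted p ranged from 8.13e-05 to 0.0590 for MSTRG.80913.5, 0.0170 to 0.367 for MSTRG.25558.2, 0.0593 to 0.507 for MSTRG.103493.6 and 0.0277 to 0.964 for mRNA10438. Where an intact library was left out, the lone intact library was assumed to vary like the other groups. The depth of each library is unknown beyond the paper's stated minimum. The median 95% interval of a difference between 4 dpl and intact was 2.11 log2 units wide in the fit of all 3 groups.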
